A study of Homo sapiens with 6 samples.

Results

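The genes described here encode 9 transcriptional cofactors: the acetyltransferase coactivators CREBBP (the protein CBP) and EP300 (p300), the steroid receptor coactivators NCOA1, NCOA2 and NCOA3, the coactivator NCOA6, the corepressor NCOR1, and the acetyltransferases KAT2A (GCN5) and KAT2B (PCAF). They were taken as the rows whose gene name equals one of these symbols. Each symbol had exactly 1 row, so they make up 9 of the 29435 genes in the deposited table, and all 9 were among the 11427 genes tested. Messenger RNA had been sequenced from cells labelled HepG2, a human line derived from a liver tumour. The comparison is between 3 libraries from cells given the vehicle DMSO and 3 from cells given saikosaponin A (SsA), a triterpenoid saponin of Bupleurum root, at 20 µM. Both treatments lasted 4 h, and both groups were the same unmodified line grown in DMEM with fetal bovine serum. The labels number the libraries 1 to 3 in each group and give no hint that these were independent cultures, so every p-value here is set against the spread among these libraries alone, which may be technical.

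Transcription factors bound to DNA act largely through such cofactors. CBP and p300 are large paralogous proteins that acetylate histone H3 and H4 tails and many transcription factors, and they are recruited by CREB, nuclear receptors and other activators. The p160 proteins NCOA1, NCOA2 and NCOA3 bind hormone-loaded nuclear receptors and bring CBP or p300 with them. NCOA6 links receptors to a histone H3 lysine 4 methyltransferase complex, NCOR1 brings the deacetylase HDAC3 to unliganded receptors, and KAT2A and KAT2B are alternative catalytic subunits of the SAGA and ATAC complexes. In liver these cofactors serve the receptors that control bile acid, lipid and glucose metabolism.

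The label of the cells was set against transcripts of hepatocytes. Of 19 hepatocyte markers 11 had a row, and 7 of these lay below 0.1 FPKM (fragments scaled to gene length and library size) on average: APOA1, APOA2, TF, FGA, FGB, FGG and HNF4A. HNF4A, a receptor that defines liver cells and is served by several of these cofactors, reached at most 8 counts in a library. FOXA1, CEBPA and CPS1 passed 1 FPKM, and the summed level of the 11 genes, 147 to 185 FPKM in DMSO and 142 to 162 in SsA, was mostly CPS1 (164 and 149 FPKM). The summed FPKM of 9 fibroblast and stellate markers was 145 to 149 in DMSO and 165 to 169 in SsA, mostly VIM (106 and 135 FPKM). Of the 9, 5 reached 1 FPKM on average. Besides VIM these were COL3A1 (29.4 and 26.4 FPKM), COL1A1 (8.56 and 3.44), PDGFRB (1.97 and 1.12) and ACTA2 (0.99 and 1.05). PDGFRA, THY1 and DCN lay below 0.1 FPKM. For 6 keratinocyte markers the sum was 148 to 154 and 194 to 203, mostly SFN (136 and 175 FPKM). KRT17 was also expressed (14.5 and 24.7 FPKM), while KRT6A, TP63, KRT13 and DSG3 lay below 0.1 FPKM. For 6 endothelial and leukocyte markers the sum was 2.31 to 5.24 and 1.38 to 3.33. Total counts were 57768359 to 74912492 per library. Mitochondrially encoded genes took 14.9% of the counts in DMSO replicate 3 and 18.8% in SsA replicate 1, against 6.19 to 8.28% in the other 4 libraries. These sums and shares move with the groups or with single libraries, and their part in the results below was not tested except where a value without those libraries is given.

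The bases just before the gene starts given in the deposited table are described next, and which promoters were in use was not tested. RefSeq's promoter table (build GRCh38.p14) held entries for 7 of the 9 genes, and 5 of them (CREBBP, EP300, NCOA3, KAT2A and KAT2B) had an entry at the gene start given in the deposited table. The 150 bases before that start were searched on both strands for 7 motifs. For EP300 and KAT2B all 150 of these bases lay in annotated GENCODE 29 exons, for KAT2A 87, for CREBBP 13 and for NCOA3 0. Shown are the parts that lie outside annotated exons, 5′ to 3′ on the gene's strand. They are those of CREBBP (the largest fall), NCOA3 (the smallest fall that passed the test) and KAT2A (which did not pass the test). Capitals mark GC boxes, GGGCGG on either strand.
CREBBP, chr16:3880727-3880863, minus strand, bases -150 to -14: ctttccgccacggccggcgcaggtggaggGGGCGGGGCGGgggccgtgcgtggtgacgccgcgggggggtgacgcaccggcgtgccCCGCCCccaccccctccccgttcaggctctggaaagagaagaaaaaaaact
NCOA3, chr20:47501737-47501886, plus strand, bases -150 to -1: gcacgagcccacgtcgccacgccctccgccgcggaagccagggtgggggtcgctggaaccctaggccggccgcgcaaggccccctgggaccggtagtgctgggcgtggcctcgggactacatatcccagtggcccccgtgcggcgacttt
KAT2A, chr17:42121368-42121430, minus strand, bases -63 to -1: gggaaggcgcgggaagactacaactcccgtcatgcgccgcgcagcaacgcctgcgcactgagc
The CREBBP window held 3 GC boxes, of which the pair farther upstream shares 1 base. The KAT2B window, which lies wholly in annotated exons, also held 3. GC boxes were in 36.8% of 35116 windows of the same length. The other 6 motifs matched in none of the 5 windows: the CRE TGACGTCA (in 1.40% of all windows), the ETS motif CCGGAAG (6.85%), the CCAAT box CCAAT (23.5%), the TATA box TATAAA (6.71%), the AP-1 motif TGANTCA (4.17%) and the NRF1 motif (4.29%). All 5 windows were rich in G and C, from 62.0% in KAT2A to 80.0% in KAT2B, and held 8 (KAT2A) to 19 (KAT2B) CpG dinucleotides. A match is a description of these letters only.

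After 4 h of SsA the transcripts of 7 of the 9 genes were lower, and none was higher. CREBBP and EP300 fell to 25.4 and 26.7% of their DMSO level, NCOA6 to 44.9%, and NCOA1, NCOA2, NCOA3 and NCOR1 to 53.6 to 62.6%. KAT2A and KAT2B did not pass the test. Throughout, a gene is called changed where edgeR's quasi-likelihood test, two-sided and adjusted by Benjamini-Hochberg over the 11427 genes, gave an adjusted p under 0.05. By that rule 27.9% of all tested genes were lower and 25.9% were higher. At least 2-fold falls were called for 3 members (CREBBP, EP300 and NCOA6), against 5.42% of all tested genes. The SsA libraries lay below every DMSO library for 8 members, as they did for 32.4% of all tested genes. The median log2 fold change was -0.87 over the 9 genes and 0.03 over all tested genes. The members were chosen with earlier results of these data known, so these comparisons are no test of the set. Among the 1004 longest protein-coding genes tested, which hold 6 of the 9 members, 78.3% were called lower. In bulk RNA, fewer cells of a kind and less RNA per cell cannot be told apart.

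**Figure D1:**
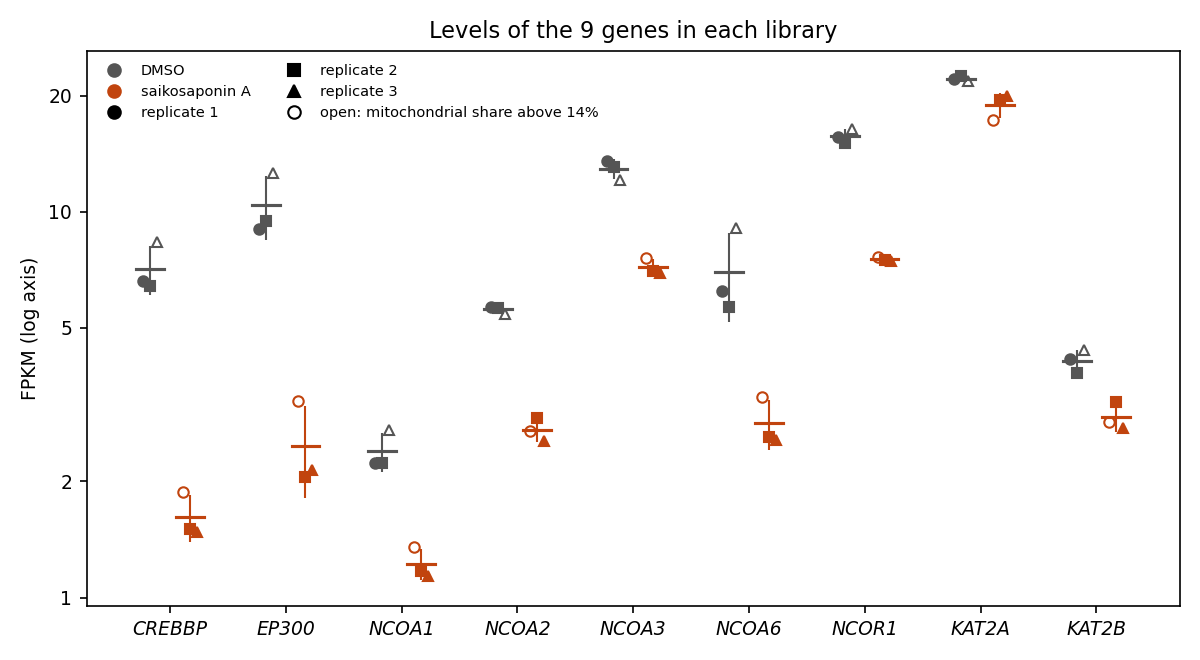
Deposited FPKM (log axis) of the 9 genes in each of the 6 libraries, DMSO in grey and SsA in orange. Horizontal bars are group means, vertical lines the SD over 3 libraries, and open symbols mark DMSO replicate 3 and SsA replicate 1. The groups are far apart for CREBBP (6.43 to 8.33 against 1.47 to 1.88 FPKM) and close for KAT2A (21.8 to 22.5 against 17.3 to 19.9 FPKM).

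CREBBP lies on chromosome 16 (GRCh38, 3725054 to 3880713, minus strand), and its longest transcript has 31 exons and 10803 nt. Its levels, in counts scaled to library size (CPM) with TMM (trimmed mean of M values) factors, were 107.7, 104.3 and 157.3 in DMSO replicates 1, 2 and 3, and 38.9, 27.6 and 27.4 in SsA replicates 1, 2 and 3. All 3 SsA libraries lay far below all 3 DMSO libraries, and the highest value of each group was that of the library with the high mitochondrial share. The mean fell from 123 ± 29.7 to 31.3 ± 6.57 CPM (SD, n = 3), a log2 fold change of -1.98 ± 0.21 (SE, edgeR adjusted p = 4.37e-04). EP300 lies on chromosome 22 (41092592 to 41180077, plus strand) and also has 31 exons, in 9587 nt. Its CPM were 111.2, 116.3 and 180.3 in DMSO and 50.5, 28.4 and 29.9 in SsA. The groups again did not overlap, and the same libraries were highest in each. EP300 fell from 136 ± 38.5 to 36.3 ± 12.3 CPM, a log2 fold change of -1.91 ± 0.28 (edgeR adjusted p = 0.00159). Both falls were as large in the 4 libraries with a low mitochondrial share (-1.97 and -1.99). Both calls held with offsets for transcript length, at -1.24 for CREBBP (edgeR adjusted p = 0.00186) and -1.25 for EP300 (edgeR adjusted p = 0.00801). Such offsets were fitted to the trend with length in these same data. They take out any change that goes with length, whatever its origin. The summed level of the pair was 17.5 ± 2.99 FPKM in DMSO and 4.09 ± 0.88 FPKM in SsA, and CREBBP made up 40.8 ± 1.31% of it in DMSO and 39.9 ± 2.88% in SsA.

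The 3 p160 genes each fell by less than 2-fold. NCOA2 (SRC-2), on chromosome 8 (70109782 to 70403808, minus strand, 8447 nt), had 59.7, 59.1 and 66.4 CPM in DMSO and 36.1, 34.6 and 30.5 in SsA. Its replicates were tight and its groups well apart, with a log2 fold change of -0.87 ± 0.09 (edgeR adjusted p = 3.96e-04). NCOA3 (SRC-3), known as a gene amplified in breast cancer, lies on chromosome 20 (47501887 to 47656877, plus strand, 7939 nt). It had 119.8, 115.6 and 123.8 CPM in DMSO and 85.4, 69.9 and 69.7 in SsA. SsA replicate 1 lay nearest to the DMSO libraries without reaching them, and the log2 fold change was -0.68 ± 0.09 (edgeR adjusted p = 0.00123). NCOA1 (SRC-1), on chromosome 2 (24491914 to 24770702, plus strand, 7405 nt), was the least abundant of the 9 genes per length. Its CPM were 20.3, 20.3 and 28.7 in DMSO and 15.7, 12.03 and 11.8 in SsA, with a log2 fold change of -0.81 ± 0.18 (edgeR adjusted p = 0.00852). The summed FPKM of the 3 genes went from 20.9 ± 0.64 to 11.1 ± 0.52. NCOA3 gave 61.8 ± 1.85% of it in DMSO and 64.6 ± 1.19% in SsA, NCOA2 26.7 and 24.5%, and NCOA1 11.5 and 10.97%. With a linear offset for transcript length NCOA2 remained lower (-0.29 ± 0.07, edgeR adjusted p = 0.0181), while the calls of NCOA1 (-0.31 ± 0.16, edgeR adjusted p = 0.169) and NCOA3 (-0.14 ± 0.08, edgeR adjusted p = 0.218) were lost.

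NCOA6, on chromosome 20 (34689097 to 34825651, minus strand, 9311 nt), fell 2.23-fold. Its CPM were 73.0, 66.1 and 123.4 in DMSO and 49.3, 34.3 and 34.2 in SsA. DMSO replicate 3 stood far above the other DMSO libraries and SsA replicate 1 above the other SsA libraries, yet the groups did not overlap. The mean went from 87.5 ± 31.3 to 39.2 ± 8.70 CPM (SD, n = 3), a log2 fold change of -1.16 ± 0.26 (edgeR adjusted p = 0.00947). In the other 4 libraries, of low mitochondrial share, it was -1.05 ± 0.06, an SE that rests on 2 pairs of closely alike libraries. With the length offset the call was lost (-0.51 ± 0.23, edgeR adjusted p = 0.127). NCOA6 shares 96 exonic nt on its strand with PIGU, which had 2097 to 2990 counts per library against 2140 to 6910 for NCOA6, so part of its reads could belong to that gene.

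NCOR1, the corepressor of the set, lies on chromosome 17 (16029157 to 16218185, minus strand) and has 46 exons in 10720 nt. It had 253.1, 244.2 and 308.1 CPM in DMSO and 157.1, 136.6 and 137.8 in SsA. The groups were well apart, and the log2 fold change was -0.90 ± 0.11 (edgeR adjusted p = 6.96e-04). With the length offset it was -0.17 ± 0.07 and the call was lost (edgeR adjusted p = 0.117). The exons of NCOR1 overlap 321 nt of PIGL on the opposite strand (492 to 802 counts per library, against 8199 to 19719 for NCOR1), and no source used here gives the strand setting of the counting.

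KAT2A and KAT2B were the members that did not pass the test, and they have the shortest transcripts of the 9. KAT2A, on chromosome 17 (42113111 to 42121367, minus strand, 3109 nt), had 87.8, 89.0 and 100.5 CPM in DMSO and 87.4, 86.8 and 89.9 in SsA. The groups overlapped, with a log2 fold change of -0.07 ± 0.07 (edgeR adjusted p = 0.424). On the FPKM scale its groups did not overlap (22.1, 22.5 and 21.8 in DMSO against 17.3, 19.5 and 19.9 in SsA), a scale on which the median of all tested genes was itself lower by 0.11 (log2). KAT2B, on chromosome 3 (20040446 to 20154404, plus strand, 4833 nt), had 22.7, 20.9 and 27.8 CPM in DMSO and 19.8, 19.9 and 17.2 in SsA. All SsA values lay below all DMSO values by a small margin, and the log2 fold change of -0.33 ± 0.13 missed the threshold (edgeR adjusted p = 0.0625). It passed without DMSO replicate 2 (-0.42, edgeR adjusted p = 0.0408) with DESeq2 (-0.33, DESeq2 adjusted p = 0.0417) and with limma on log2(FPKM + 1) (-0.38, limma adjusted p = 0.0108). KAT2A gave 84.3 ± 1.09% of the summed FPKM of the pair in DMSO and 86.5 ± 1.15% in SsA.

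Without the libraries of high mitochondrial share the 7 calls held, but the 4 libraries left form 2 close pairs. The chi-square per gene between their counts was 15.5 for DMSO replicates 1 and 2 and 15.2 for SsA replicates 2 and 3. It was 329 to 428 between either of the libraries left out and the others of its group. The standard errors of this fit are thus set against a small spread, and the fit is no independent check. In the fit to the other 4 libraries, where 34.5% of all tested genes were lower, so were the same 7 members, with log2 fold changes of -1.99 (EP300) to -0.78 (NCOA3), while KAT2A was at -0.03 and KAT2B at -0.26 (edgeR adjusted p = 0.0516). Between the 2 libraries of high share, SsA replicate 1 and DMSO replicate 3, the log2 ratio of CPM was -2.02 for CREBBP, -1.84 for EP300, -1.32 for NCOA6 and -0.97 for NCOR1. It was -0.88 for NCOA2, -0.87 for NCOA1, -0.54 for NCOA3, -0.49 for KAT2B and -0.20 for KAT2A. In both groups the library of high share had the highest CPM for the 7 genes called lower.

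**Figure D2:**
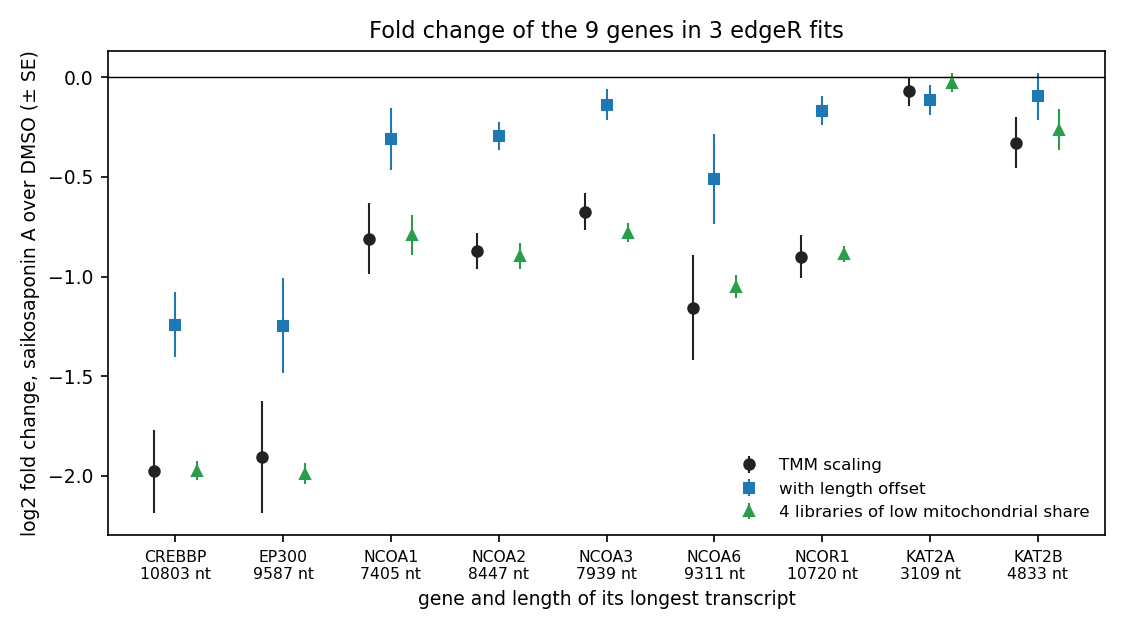
Log2 fold change (SsA over DMSO, with SE) of the 9 genes in 3 edgeR fits, with the length of the longest transcript under each name. Black circles are the fit to all 6 libraries, blue squares the same with a linear length offset, and green triangles the fit to the 4 libraries of low mitochondrial share. With the offset CREBBP and EP300 lie at -1.24 and -1.25 and the other 7 genes lie between -0.51 and -0.10.

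Transcript length moved with the changes over the whole table, and 7 of the 9 members are long. Over 10040 protein-coding genes the Spearman correlation of the log2 fold change with length was -0.72, with a slope of -0.43 per doubling; genes are not independent replicates. Split into 10 groups of 1004 genes by length, group 10 (7543 to 34526 nt) holds CREBBP, EP300, NCOA2, NCOA3, NCOA6 and NCOR1. Of the genes in it 78.3% were called lower, and their log2 fold change had quartiles of -1.02, -0.66 and -0.30. CREBBP and EP300 lay at the low end of that group: 22 of the 1003 other genes (2.19%) had a lower log2 fold change than CREBBP and 28 (2.79%) than EP300. NCOA6 (17.8% of the others lower) also lay below the lower quartile, while NCOR1 (32.1%), NCOA2 (34.2%) and NCOA3 (49.1%) lay between the quartiles. NCOA1 belongs to length group 9, where the median was -0.45 and 19.7% of the others were lower. KAT2B (group 7, median -0.18) had 33.2% and KAT2A (group 5, median 0.02) 38.4% of the others below it. With a linear length offset 3 members were called lower (CREBBP, EP300 and NCOA2), against 16.9% of all genes tested that way.

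**Figure D3:**
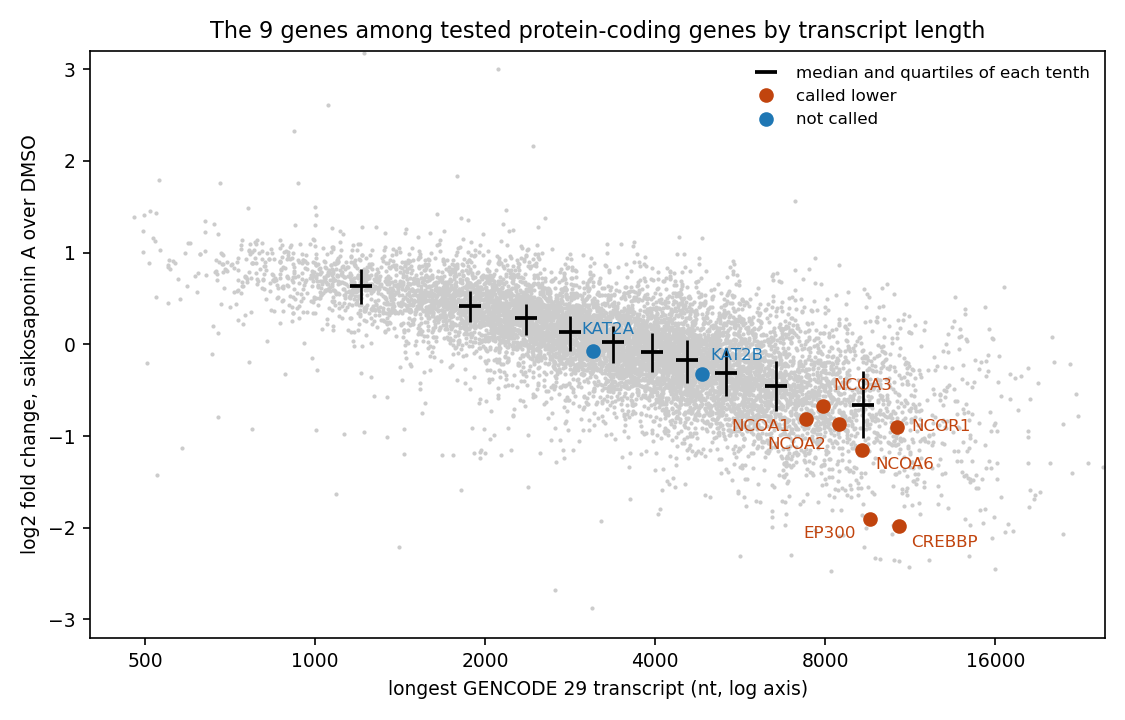
Log2 fold change (SsA over DMSO) against the length of the longest GENCODE 29 transcript (nt, log axis) for 10040 tested protein-coding genes in grey, of which 20 lie outside the axes. Black crosses give the median and quartiles of each of the 10 length groups, orange points the members called lower and blue points those not called. CREBBP, EP300 and NCOA6 (-1.16) lie below the lower quartile of the longest group (-1.02), and NCOA3 (-0.68) lies near its median (-0.66).

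GC content differed among the members with like lengths. CREBBP (55.8% GC) and EP300 (52.0%) are richer in G and C than NCOA6 (47.8%), NCOR1 (45.2%), NCOA1 (44.0%), NCOA2 (43.4%) and NCOA3 (42.6%), while KAT2A has 59.9% and KAT2B 44.3%. In a fit with offsets for length and GC content together, chosen after the data were seen, CREBBP was at -1.16 (edgeR adjusted p = 0.00233), EP300 at -1.19 (edgeR adjusted p = 0.00916) and NCOA2 at -0.31 (edgeR adjusted p = 0.0154). No other member passed in it, and 17.5% of all genes tested that way were lower. The genes span 8.26 kb (KAT2A), 87.5 kb (EP300), 114 kb (KAT2B) and 136.6 kb (NCOA6) of the genome. NCOA3 spans 155.0 kb, CREBBP 155.7 kb, NCOR1 189 kb, NCOA1 279 kb and NCOA2 294 kb, and the part of span in the changes was not tested.

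The question whether paralogs moved by different amounts was addressed through ratios within a library, which do not depend on the scaling between libraries. The 5 paralog ratios were tested by an exact permutation test over the 6 libraries, two-sided, in which 3 against 3 cannot give a p below 0.1. The log2 ratio of EP300 to CREBBP was 0.05, 0.16 and 0.20 in DMSO and 0.38, 0.04 and 0.13 in SsA, a difference of 0.05 (95% interval -0.25 to 0.36, exact p = 0.9). Here the groups overlapped. The ratio of KAT2A to KAT2B was higher by 0.25 in SsA (-0.05 to 0.56) and that of NCOA2 to NCOA3 lower by 0.19 (difference -0.19, interval -0.40 to 0.02), each without overlap and with an exact p = 0.1 (adjusted p = 0.25 over the 5 ratios). KAT2A and KAT2B differ in length (3109 and 4833 nt). With the linear length offset they were at -0.12 and -0.10, and NCOA2 and NCOA3 (8447 and 7939 nt) at -0.29 and -0.14. The part of length in the ratios was not tested. NCOA1 to NCOA2 differed by 0.07 (-0.33 to 0.48, exact p = 0.5) and NCOA1 to NCOA3 by -0.12 (-0.53 to 0.29, exact p = 0.7). The intervals of these 5 differences reach at most 0.56 in either direction.

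Ratios between members of different families, picked after their values were seen and given without a test, spanned more. The log2 ratio of CREBBP to NCOR1, whose longest transcripts have nearly the same length (10803 and 10720 nt), went from -1.14 ± 0.15 in DMSO to -2.22 ± 0.18 in SsA (SD, n = 3). The ratio of EP300 to NCOA6 (9587 and 9311 nt) went from 0.66 ± 0.14 to -0.14 ± 0.16. In both of these ratios every SsA library lay below every DMSO library. Since the pairs were picked after their values were seen, neither this separation nor its size can be weighed against the paralog ratios. How many other gene pairs separate in this way was not counted. Of single genes, 7174 of the 11427 tested had groups without overlap.

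**Figure D4:**
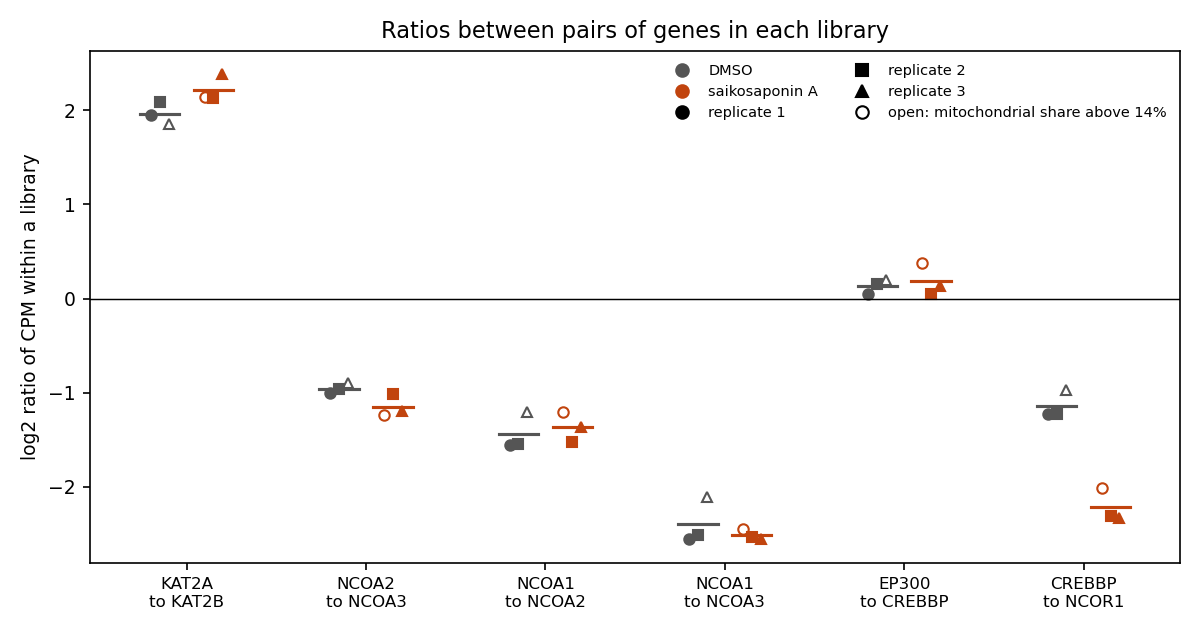
Log2 ratio of CPM between pairs of genes in each library, DMSO in grey and SsA in orange, with bars at the group means and open symbols for the 2 libraries of high mitochondrial share. The 5 ratios on the left are the paralog pairs of the set, which differ by -0.19 to 0.25 between groups. CREBBP to NCOR1 on the right was added after its values were seen and differs by -1.08.

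Per length, KAT2A was the most abundant of the 9 transcripts in both groups (22.2 ± 0.33 FPKM in DMSO and 18.9 ± 1.37 in SsA) and NCOA1 the least (2.40 ± 0.28 and 1.22 ± 0.11). In DMSO the order below KAT2A was NCOR1 (15.7 ± 0.64), NCOA3 (12.9 ± 0.77), EP300 (10.4 ± 1.96), CREBBP (7.13 ± 1.05), NCOA6 (7.00 ± 1.83), NCOA2 (5.58 ± 0.13) and KAT2B (4.12 ± 0.28 FPKM). The libraries of NCOA3 and EP300, of CREBBP and NCOA6, and of NCOA6 and NCOA2 overlapped in that order, and the other neighbours did not. In SsA the order was KAT2A, NCOR1 (7.54 ± 0.09), NCOA3 (7.19 ± 0.37), KAT2B (2.94 ± 0.25), NCOA6 (2.83 ± 0.42), NCOA2 (2.72 ± 0.19), EP300 (2.47 ± 0.66), CREBBP (1.62 ± 0.22) and NCOA1 (FPKM). NCOR1 overlapped NCOA3, and KAT2B, NCOA6 and NCOA2 each overlapped the next, while EP300, CREBBP and NCOA1 were apart from each other. By mean FPKM, EP300 and CREBBP, at ranks 4 and 5 in DMSO, were at ranks 7 and 8 in SsA. KAT2B moved from rank 8 to rank 4 while its own level was not higher. In SsA the libraries of KAT2B (2.75 to 3.22 FPKM) and EP300 (2.05 to 3.23 FPKM) overlapped, so their order is one of means only.

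The members were compared with each other and with all tested genes by the root-mean-square difference of their centred log2 CPM over the 6 libraries. Among members the closest pair was NCOA2 and NCOR1 (0.08), followed by NCOA1 and NCOR1 (0.10) and by CREBBP and EP300 (0.11). EP300 and CREBBP were farthest from KAT2A (0.98 and 0.97). Among genes outside the set the closest to CREBBP was ARID1A (0.08). For the p160 genes they were SOS1 for NCOA1 (0.03), FBRS for NCOA2 (0.02) and GNL3L for NCOA3 (0.02). They were OTX1 for NCOA6 (0.05), WWC3 for NCOR1 (0.03), SRD5A1 for KAT2A (0.03) and VANGL1 for KAT2B (0.04). These are descriptions over 6 libraries of 2 groups.

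The lists that follow are read, for the main edgeR fit, against the 27.9% of all tested genes that were lower and the 25.9% that were higher. With the linear length offset, 15 of the 87 called list genes had the other sign, and 3 of them were called the other way (TBL1XR1 and SF3B3 higher, CITED4 lower). TBL1XR1, SF3B3, EID2 and TAF12 are named for that sign change, after their values were seen. Of 14 tested partners of CBP and p300, 3 were lower and 4 higher, with a median log2 fold change of -0.20. The numbers were 3 and 1 with the length offset, 6 and 0 by limma on log2(FPKM + 1) and 5 and 0 on the TPM scale (FPKM rescaled to a common sum in each library). Over all genes tested that way, the length offset gave 1923 lower and 1794 higher of 11382. Limma gave 3723 and 914 of 11427 on log2(FPKM + 1), and 2446 and 49 on the TPM scale. The median log2 fold change of all tested genes on the TPM scale was -0.31. Counts from these fits for the later lists are read against the same numbers. MAML1, the Notch coactivator that recruits p300, fell from 84.3 ± 10.9 to 39.2 ± 2.01 CPM (log2 fold change -1.10, edgeR adjusted p = 2.91e-04). CRTC3, a CREB coactivator, was lower by less (-0.76). CREM, a CREB relative, was higher (0.48, edgeR adjusted p = 0.0109), a call lost with the length offset (0.25, edgeR adjusted p = 0.109). The p300-binding CITED4 was called higher (0.35), but its value turned with the length offset (-0.23) and, at -0.0092, on the TPM scale.

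Of 18 tested partners of the p160 proteins and NCOA6, 8 were lower and 3 higher, with a median of -0.33 (4 and 2 with the length offset). PPRC1, a relative of PGC-1 that serves mitochondrial biogenesis genes, went from 101.8 ± 21.5 to 39.5 ± 9.16 CPM (-1.36, edgeR adjusted p = 0.00161). The receptor corepressor NRIP1 (-0.88) and the Mediator subunit MED1 (-0.82), which contacts receptors, were also lower. PRMT1, the arginine methyltransferase that works with the p160 coactivators, was higher, at 108.7 ± 6.96 and 165.7 ± 5.77 CPM (0.61, edgeR adjusted p = 5.60e-04; 0.18 with the length offset, edgeR adjusted p = 0.0419). TRIP4, a subunit of the ASC-1 complex, was called higher (0.30), but its value was negative on the TPM scale (-0.056) and at -9.71e-04 with the length offset. Its TPM value lay above the median of all tested genes on that scale (-0.31) and was not called.

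Of 6 tested genes for partners of NCOR1 in its complex, 3 were lower and 1 higher (median -0.059), and with the length offset none was lower and 2 were higher. TBL1X, the exchange factor of the complex, was lower (151.4 ± 10.1 and 95.3 ± 7.93 CPM, -0.67, edgeR adjusted p = 8.59e-04), as was the histone demethylase KDM4A (49.2 ± 0.39 and 38.2 ± 1.41 CPM, -0.37, edgeR adjusted p = 0.00290), and both calls were lost with the length offset (-0.20 and -0.18). HDAC3, its catalytic subunit, was called higher (0.25), with a negative value under the length offset (-0.086) and on the TPM scale (-0.12). Among 15 other corepressors 10 were lower and 1 higher (median -0.67), against 3 and 1 with the length offset. SPEN, a very long corepressor of Notch and hormone signalling, went from 173.5 ± 35.4 to 34.1 ± 7.95 CPM, with a log2 fold change of -2.35 (edgeR adjusted p = 2.31e-04) and of -1.54 with the length offset. The Polycomb-associated BCORL1 (-1.20) and BCOR (-1.06) and the Groucho protein TLE3 (-0.74) were lower, and TLE3 lost its call with the length offset (-0.20, edgeR adjusted p = 0.0683). TRIM28, the corepressor of KRAB zinc finger proteins, was called higher (0.18), with 0.11 and no call under the length offset and -0.18 on the TPM scale. On the TPM scale the median of all tested genes was -0.31, below both TRIM28 and HDAC3, and neither was called there.

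Subunits of SAGA and ATAC, the complexes that hold KAT2A or KAT2B, had 10 of 30 tested genes lower and 8 higher, with a median of -0.11. The numbers were 8 and 4 with the length offset, 14 and 3 by limma on log2(FPKM + 1) and 8 and 0 on the TPM scale. TRRAP, the large scaffold of SAGA, went from 158.9 ± 15.4 to 47.7 ± 5.25 CPM (-1.74, edgeR adjusted p = 8.42e-05; -0.90 with the length offset). ATXN7 (-1.52) and USP22 (-0.70), both of the deubiquitinase module, were lower. POLE4, a histone-fold protein, was higher (0.98, edgeR adjusted p = 0.00330; 0.36 with the length offset, edgeR adjusted p = 0.0657), and SF3B5, a short subunit shared with the spliceosome (693 nt), was called higher (0.82) with a value of -0.17 under the length offset. Of 10 tested acetyltransferases outside the set 6 were lower and none higher (median -0.37), against 4 and 1 with the length offset. KAT6A (MOZ) went from 53.7 ± 7.60 to 19.7 ± 3.48 CPM (-1.45), and ESCO1, the cohesin acetyltransferase, was at -0.58.

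Among genes for other bromodomain proteins, which bind acetylated lysine, 18 of 21 were lower and none higher, with a median of -0.81 at a median transcript length of 6102 nt. BAZ2A, of a nucleolar repressor complex, was at -1.27 (edgeR adjusted p = 1.06e-04), BPTF, of the remodeller NURF, at -1.20 (-0.44 with the length offset, edgeR adjusted p = 0.0623), and BRPF3, a partner of acetyltransferases, at -1.13. PHIP (-1.09), BRWD3 (-1.03) and TAF1, of the general factor TFIID (-1.03), also fell at least 2-fold. Under the length offset BRPF3 was at -0.76, BAZ2A at -0.66, TAF1 at -0.51, PHIP at -0.38 and BRWD3 at -0.27. These were still called lower, but by less than 2-fold. With the length offset 12 of the 21 were lower and 2 higher. In the 4 libraries with a low mitochondrial share 19 of the 21 were lower, beside 34.5% of all tested genes. Nuclear receptors, the partners of the p160 proteins and NCOR1, were tested for 23 of 40 genes with a row, and 8 were lower and 4 higher (median -0.26; 5 and 4 with the length offset). PPARA, which controls fatty acid oxidation, went from 19.5 ± 0.54 to 9.73 ± 2.28 CPM (edgeR adjusted p = 0.00293; a log2 fold change of -0.32 and adjusted p of 0.190 with the length offset), and the clock repressor NR1D2 was at -0.64. NR3C1, the glucocorticoid receptor, was called lower (-0.47) with a value of 0.017 under the length offset. The early-response receptors NR4A1 (49.7 ± 2.32 and 111.0 ± 26.4 CPM, 1.16) and NR4A2 (1.09) were higher, and stayed so with the length offset (1.39 and 1.12).

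**Figure D5:**
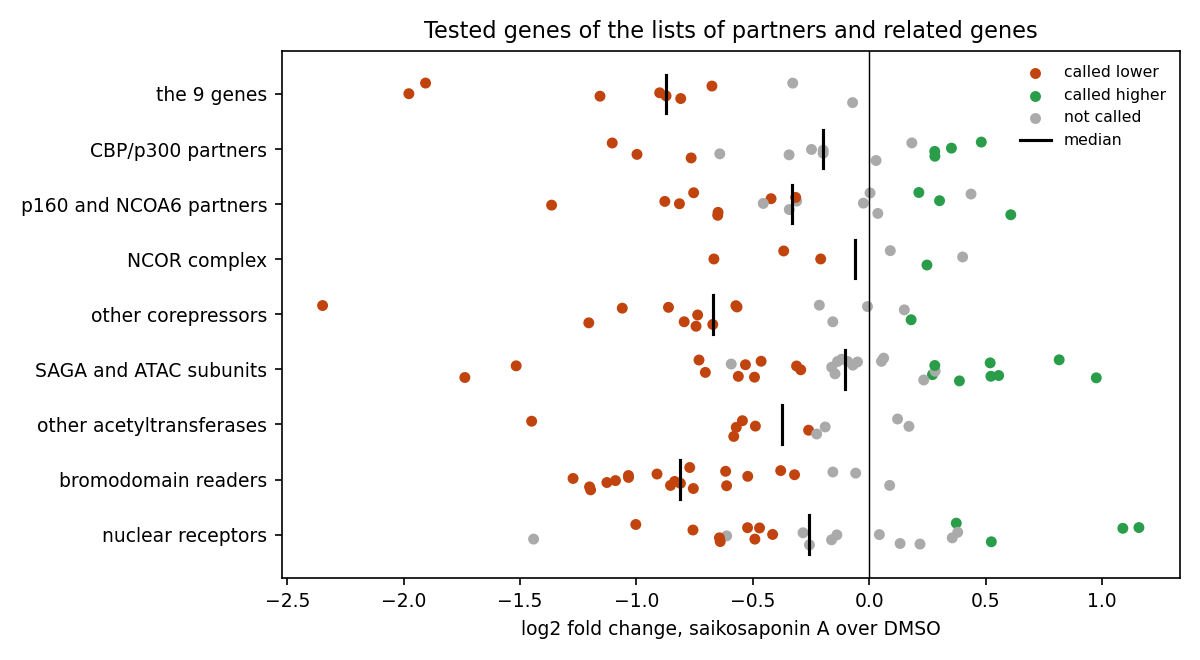
Log2 fold change (SsA over DMSO) of each tested gene of the 9 cofactor genes and of 8 lists of partners and related genes, with vertical bars at the medians. Orange points were called lower, green points higher and grey points not called. The medians run from -0.87 for the 9 genes to -0.059 for the NCOR complex, and 6 of the 21 genes called higher (CITED4, EID2, TRIP4, HDAC3, TAF12 and SF3B5) were negative with the linear length offset, as 9 of the 66 called lower were positive.

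The share of lower among all called genes depended on the scale: it was 51.9% by edgeR, 80.3% by limma on log2(FPKM + 1), 80.7% with a pseudocount of 0.1 and 98.0% on log2(TPM + 1). The median log2 fold change of all tested genes on those 3 scales was -0.11, -0.13 and -0.31. The 7 members called lower by edgeR were called lower on each of those scales as well, beside 32.6, 32.4 and 21.4% of all tested genes.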

How the data were processed

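Poly(A)-selected, strand-marked (dUTP) RNA-seq libraries were made from Trizol-extracted RNA, per the labels' protocols. Per the submitters' processing notes, the authors worked on GRCh38 with HISAT2 2.0.4, cutadapt 1.9 and StringTie 1.3.4d. How counts were made, with which strand setting and annotation release, was not given in the sources used here. Per gene and library, the deposited table holds 1 whole-number count, per the file headers, taken as not normalised. It also holds the authors' FPKM, per the file headers, which was used for levels between genes, for the filter and for alternatives. SA in a column name was taken to mean saikosaponin A. No 2 libraries agreed within sampling noise. The chi-square per gene was 15.2 for the closest pair, SsA replicates 2 and 3, and 15.5 for DMSO replicates 1 and 2. Every other pair was far less alike, from 329 up.

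The 11427 genes that reached 1 FPKM in 3 or more of the 6 libraries were tested with edgeR 4.0.16 (R 4.3.3): TMM factors, quasi-likelihood F test, two-sided, Benjamini-Hochberg adjustment, threshold 0.05. The biological coefficient of variation was 15.3%. Standard errors are log2 fold changes over the root of F. CPM use the library size over tested genes times its TMM factor. The code was tested on simulated data. Length offsets were fitted in each library, on the centred log2 CPM of protein-coding genes against the log2 of transcript length. The fit was a straight line (linear) or a smooth curve (smooth). Transcript length, GC content and exons were those of the longest GENCODE 29 transcript (28679 rows matched by gene ID). The intervals of ratio differences assume equal spread in both groups and describe only these libraries.

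The members and the 8 lists of partners were chosen with earlier results of these data known, so they get no list test. Of 216 different list genes 193 had a row. A few genes are not reported here, and the nearest gene of EP300 is left out. From each list the 2 called genes of smallest p in each direction are named, with up to 4 called genes past 2-fold. The nearest gene of each member is named by the smallest root-mean-square difference of centred log2 CPM (prior count 2). Alternatives were DESeq2 1.42.0, other scaling factors and filters, limma 3.58.1 on log2(FPKM + 1), log2(FPKM + 0.1) and log2(TPM + 1), offsets for length, a replicate block, libraries left out and, added after the data were seen, an offset for length and GC content.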

Additional observations from a re-analysis of the deposited data

How the results depend on the processing

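All 9 members kept a negative log2 fold change in every alternative run, and KAT2A passed in none. CREBBP, EP300 and NCOA2 were called lower in each alternative that tested them. The filter on a mean FPKM of at least 5 tested 6197 genes, of which 1762 were lower and 1666 higher, and kept 4 members in the test, of which 3 were lower. The length offsets, which changed calls, gave 1923 lower and 1794 higher genes when linear, 1900 and 1654 when smooth, and 1995 and 1749 with GC content added, and 3 members were lower in each. In those 3 fits (linear, smooth, with GC) NCOA1 was at -0.31, -0.30 and -0.32, NCOA3 at -0.14, -0.13 and -0.16, NCOA6 at -0.51, -0.52 and -0.49, and NCOR1 at -0.17, -0.19 and -0.16; the part of length in the members' falls was not tested beyond these fits. Limma called 914 genes higher on log2(FPKM + 1), 886 with a pseudocount of 0.1 and 49 on log2(TPM + 1), against 2956 by edgeR. KAT2B passed with DESeq2 (-0.33), with limma on FPKM (-0.38, and -0.47 with the pseudocount of 0.1) and without DMSO replicate 2. With each library left out in turn KAT2B ranged from -0.42 to -0.22, the members called lower from 7 to 8, and the genes called lower from 2594 to 3249. Among the list genes named by the rule, values changed sign on the TPM scale for CITED4 (-0.0092), TRIP4 (-0.056), HDAC3 (-0.12) and TRIM28 (-0.18). The median of all tested genes on that scale was itself -0.31, below each of these values. Over all list genes 15 of 87 called ones had the other sign with the linear offset. Of the named ones these were, with the linear, smooth and GC offsets, CITED4 (-0.23, -0.22 and -0.075), TRIP4 (-9.71e-04, -0.056 and -0.045), HDAC3 (-0.086, -0.14 and -0.078) and SF3B5 (-0.17, -0.040 and -0.16), and, with the linear and smooth offsets, NR3C1 (0.017 and 0.031).

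Same-numbered libraries had correlations of -0.34, 0.29 and -0.35 between their deviations from the group means. The largest was 0.55, between DMSO replicate 3 and SsA replicate 1, the libraries of high mitochondrial share. With 3 libraries per group these values cannot settle whether the replicate numbers pair the libraries. With the replicate block 7 members were called lower, as without it, and 2542 genes were lower and 2074 higher in all. The counts of 740 to 19719 reads per member and library leave counting error mostly small beside the spread between libraries. An exception is KAT2A in SsA, where the spread was itself small (88.0 ± 1.65 CPM). The 3 libraries per group limit the precision.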
